A study of Mus musculus with 93 samples.

Results

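EMP, the short name in this field for erythro-myeloid progenitors, were compared between embryonic day (E) 9 and E10.25 of the mouse. The members were the libraries labelled EMP, which were 6 of the 93 bulk SMART-Seq2 libraries of sorted cells; the others are 13 of pMac and 74 of Mac, the later stages of the macrophage lineage. There were 2 EMP libraries of the yolk sac at E9 (replicates 1 and 2), 2 of the yolk sac at E10.25 (replicates 1 and 2) and 2 of the liver at E10.25 (replicates 2 and 3). No treatment or genetic change is named for any of these groups, and the sources used here do not give the strain, the sort gate or the number of embryos per library. The liver has no E9 group, so in the comparison over both tissues age and tissue cannot be fully told apart. The series design says that replicates are technical and biological without saying which, so p-values measure the spread between these libraries, which may be technical.

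Erythro-myeloid progenitors arise from hemogenic endothelium of the yolk sac, a vessel lining that gives rise to blood cells. They enter the circulation, settle in the fetal liver and produce red cells, megakaryocytes, mast cells, granulocytes and, through pMac, the macrophages that persist in adult tissues. Transcription factors such as Runx1, Gata2, Tal1, Myb and the HoxA proteins with their partners Meis1 and Pbx hold the progenitor state, and cytokine receptors such as Kit, Flt3, Csf1r and Csf2rb steer survival and lineage.

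The deposited values are log2 levels per transcript, already normalized. A gene's level here is the log2 of the sum of its transcripts, and a difference of 1 is a 2-fold difference. Values at or under 5.4, called the floor below, were read as not distinguishable from no signal. The main fits used the values as listed, those under the floor included. For differences given with the floor, the part of each transcript's linear level above the floor was summed per gene. The floor was then added back, in every library alike. A gene was tested if a transcript reached 6.4 in at least 2 of the 6 libraries, which left 10539 of 14200 genes. Of these, a gene was called where its adjusted p was under 0.05 in limma, with Benjamini-Hochberg adjustment over all 10539, and its log2 difference was at least 1. The main comparison set the mean of the 2 tissues at E10.25 against E9. A second comparison took the yolk sac alone at both ages, and a further one set liver against yolk sac at E10.25. The first and second comparisons share the E9 libraries, and all share the yolk sac libraries of E10.25. An exact permutation test of 2 against 4 libraries cannot reach 0.05, so the tests rest on the spread that limma pools across genes.

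The 6 libraries differed in ways their groups do not account for. Between 21011 and 24131 transcripts per library lay above the floor; the total count behind each is unknown. The lowest values of a library form a narrow band, centred at 3.85 in liver replicate 3 and between 2.35 and 2.75 in the other 5 libraries. Across the tested genes, Pearson's r was 0.900 within the E9 pair, 0.940 within the yolk sac pair of E10.25 and 0.783 within the liver pair, genes not being independent replicates. Liver replicate 2 correlated at 0.898 and 0.874 with the E9 libraries and at 0.863 and 0.819 with the yolk sac libraries of its own age. Liver replicate 3 lay between 0.696 and 0.783 with every other library. The 2 liver libraries differed by 1 or more in 4540 genes (43.1%), the E9 pair in 1268 genes (12%) and the yolk sac pair of E10.25 in 751 genes (7.1%). The liver libraries therefore stand apart from each other, and results below are given by library.

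**Figure D1:**
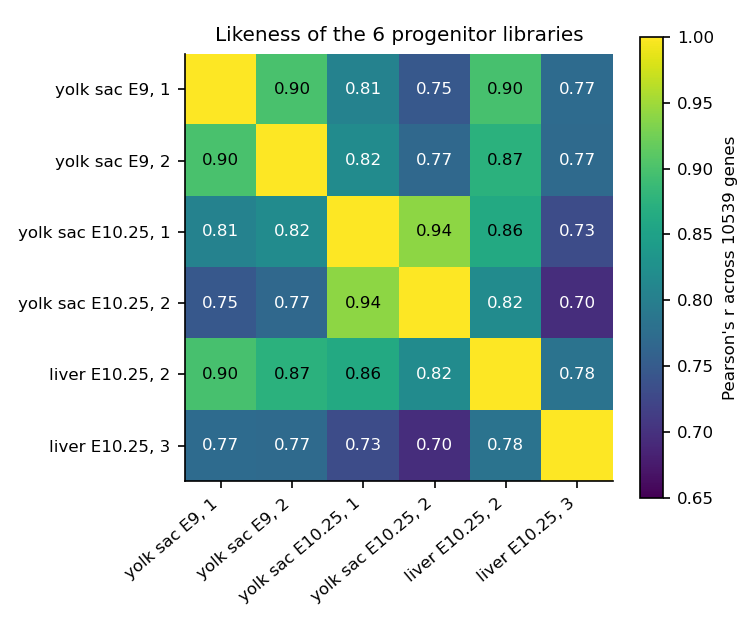
Pearson's r across 10539 genes between each pair of the 6 progenitor libraries, with colour and printed value showing r. The yolk sac pair of E10.25 is the most alike (0.94), and liver replicate 3 is at 0.78 or lower with every other library.

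The label EMP was checked against its markers. Kit, the receptor for stem cell factor, lay between 10.85 and 11.49 in the 6 libraries, against 6.69 to 9.27 in 9 pMac libraries of E9.5. Gata2, a zinc finger factor of early progenitors, lay between 9.03 and 10.29, against 3.99 to 6.41 in those pMac. Cd34, a sialomucin of progenitors and endothelium, lay between 11.76 and 14.26, which overlapped with 10.82 to 13.40 in those pMac. Csf1r, the receptor that macrophages depend on, was at 9.21 to 10.71 in EMP and at 12.31 to 14.20 in pMac of E9.5. The markers were thus present in all 6 libraries, Kit and Gata2 without overlap with pMac of E9.5, and the macrophage receptor was lower than in the next stage. Kit and Gata2 were not called in any of the 3 comparisons; the age difference in Kit was 0.51 ± 0.32 (SE) with an adjusted p of 0.395 in limma.

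With both tissues at E10.25, 4 of 10539 genes (0.038%) were called, all of them higher at E10.25: Hoxa9, Hoxa7, Samsn1 and Tmem176b. No gene was called lower, while 2207 genes had an unadjusted p under 0.05 in limma. The ages did not overlap, with a difference of at least 1, in 1178 genes that were higher (11.2%) and 207 that were lower at E10.25 (1.96%). The HoxA genes encode homeodomain factors that hold blood progenitors in an immature, dividing state. Samsn1 encodes an adaptor protein with an SH3 domain that dampens immune signalling, and Tmem176b encodes a membrane protein of antigen-presenting and other myeloid cells.

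Hoxa9 was at 4.34 and 4.13 in the 2 E9 libraries, under the floor. It was at 9.61 and 10.04 in the yolk sac and at 8.97 and 7.61 in the liver at E10.25. All 4 libraries of the later age lay above both of the earlier age, with the lowest in liver replicate 3. The difference was 4.83 ± 0.60 (SE), with an adjusted p of 0.0236 in limma, and 3.33 with the floor. In the yolk sac alone the difference was 5.59 ± 0.69, with an adjusted p of 0.0114 in limma.

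Hoxa7 was at 3.76 and 3.53 at E9, also under the floor. It was at 8.41 and 8.45 in the yolk sac and at 7.79 and 8.90 in the liver at E10.25. The groups did not overlap and liver and yolk sac lay in 1 range. The difference was 4.74 ± 0.68 (SE; adjusted p = 0.0396 in limma), and 2.78 with the floor. The reads of Hoxa7 cannot be told with certainty from those of the antisense gene Hoxaas3. The sources used here do not say whether the counting used strand. Mir196b overlaps Hoxa9 on the same strand, so strand could not separate the reads of that pair.

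Samsn1, outside the HoxA cluster on chromosome 16 (75858793 to 76022281), was at 9.17 and 8.39 at E9. It was at 11.95 and 13.07 in the yolk sac and at 10.58 and 10.40 in the liver at E10.25. The ages did not overlap, and the yolk sac libraries were higher than the liver libraries of the same age. The difference was 2.72 ± 0.40 (SE; adjusted p = 0.0396 in limma). Tmem176b, on chromosome 6 (48833818 to 48841496), was at 8.63 and 7.91 at E9, at 11.05 and 11.90 in the yolk sac and at 9.96 and 10.60 in the liver. Its difference was 2.60 ± 0.39 (SE; adjusted p = 0.044 in limma). Tmem176b overlaps Tmem176a on the other strand, and Samsn1 overlaps the antisense gene Gm15555, so their reads are uncertain as those of Hoxa7 are.

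The size of these 4 differences was stable when single libraries were left out, and their calls were not. Over the 6 fits that each lack a library, the difference ran from 4.49 to 5.17 for Hoxa9, from 4.46 to 5.02 for Hoxa7, from 2.33 to 3.11 for Samsn1 and from 2.25 to 2.96 for Tmem176b. Without 1 liver library, the liver group adds no spread to the fit, so whether a gene is called there is no test of it. None stayed called without yolk sac E10.25 replicate 1, yolk sac E10.25 replicate 2 (adjusted p = 0.406 in limma for each) or E9 replicate 1, and Hoxa9 alone stayed called without E9 replicate 2 (0.0433). Samsn1 and Tmem176b were also lost with no intensity trend (0.189 and 0.192) and when 39 libraries of early stages shared the spread (0.997 for each), where Hoxa9 and Hoxa7 stayed called. All 4 calls were lost with gene sums floored at 5.4, where the adjusted p was 0.0701 to 0.0869 in limma, and after median centring, where it was 0.152 for Hoxa9. Over the alternatives that kept all 6 libraries, the adjusted p of Hoxa9 ran from 0.000219 to 0.308 in limma.

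The rest of the Hox genes followed no single pattern. The table holds 7 Hox genes, of which 4 belong to the HoxA cluster on chromosome 6, all transcribed from the minus strand. In the mm10 annotation they lie in the order Hoxa5 (52201754 to 52204587), Hoxa7 (52214491 to 52221854), Hoxa9 (52223100 to 52231089) and Hoxa10 (52231197 to 52240854). Hoxa10 was at 3.71 and 3.55 at E9, at 7.36 and 7.82 in the yolk sac at E10.25, and at 4.19 and 4.80 in the liver. The signal above the floor was thus seen in the yolk sac libraries of E10.25 and in no liver library. It was called in the yolk sac comparison (3.96 ± 1.21 SE, adjusted p = 0.0488 in limma; 1.83 with the floor) and was not called after quantile normalization or median centring. Its liver minus yolk sac difference of -3.10 ± 1.21 was not called (adjusted p = 0.135 in limma).

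Hoxa5 was too low to be tested. It was listed at 2.77 and 3.01 at E9, at 6.4 and 6.95 in the yolk sac at E10.25, and at 6.32 and 5.22 in the liver. Hoxb2, on chromosome 11, was above the floor at both ages, with 7.93 and 7.81 at E9, 7.09 and 6.5 in the yolk sac and 7.18 and 8.17 in the liver at E10.25. Its yolk sac libraries of E10.25 were the lowest, the liver libraries lay on either side of E9, and it was not called. Hoxd10 and Hoxd13 were under the floor in all 6 libraries. The partner Meis1 lay between 10.33 and 11.14 in the 6 libraries and was not called, and neither was Pbx3. Of the 7 tested members of the list of Hox genes and cofactors, 2 were called in the main comparison and 3 in the yolk sac. Of all tested genes 0.038% and 12.6% were called. The called members, Hoxa9, Hoxa7 and Hoxa10, were under the floor at E9 and met the filter only through E10.25. They could therefore be called in 1 direction only, and the list was chosen with earlier results known, so its share is no test of the Hox genes.

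The start regions of Hoxa9 and Hoxa7 are shown because these are the members of the cluster that were called together. Both come from the RefSeq promoters of GRCm38.p6, minus strand, read 5′ to 3′. That of Hoxa9 is chr6:52227371-52227620 and lies in an intron of 2 noncoding transcripts of the annotation. That of Hoxa7 is chr6:52218712-52218823 and leaves out the 138 bases next to the start site, part of which the annotation gives as an exon of another transcript. Capitals mark TTTATG, a core of the sites bound by the caudal-type (Cdx) factors.
Hoxa9: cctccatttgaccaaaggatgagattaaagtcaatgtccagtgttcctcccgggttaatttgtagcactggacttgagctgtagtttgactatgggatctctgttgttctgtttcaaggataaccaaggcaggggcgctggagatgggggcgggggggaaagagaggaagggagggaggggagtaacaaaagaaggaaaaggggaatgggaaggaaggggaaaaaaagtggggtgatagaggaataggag
Hoxa7: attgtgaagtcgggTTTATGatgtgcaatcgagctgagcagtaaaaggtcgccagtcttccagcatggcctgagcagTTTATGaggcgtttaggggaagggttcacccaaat

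Of 4 motifs searched on both strands in the 250 bases before the start, the Hoxa9 window held none and the printed Hoxa7 stretch held 2 copies of TTTATG. Among 32851 promoters, 10.8% held TTTATG in a window of 250 bases, 10% held the GATA motif AGATAA, 15.9% the MEIS motif TGACAG and 14.0% the RUNX motif TGTGGT. The first of these was added to the search after the sequences had been read. A match describes the letters of this window and not a bound site.

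Among EMP, pMac and Mac of E9 to E10.5, Hoxa9 and Hoxa7 had their highest median in EMP of E10.25. Hoxa9 had a median of 9.29 in the 4 EMP libraries of E10.25 (7.61 to 10.04). Its median was 4.72 in 9 pMac libraries of E9.5 (4.28 to 6.02) and 6.09 in 4 pMac libraries of E10.25 (4.86 to 6.80). It was 5.30 in 11 Mac libraries of E10.25 (4.61 to 8.50). Among these groups the EMP of E10.25 did not overlap with pMac of either age, and did overlap with Mac of E10.25. Hoxa7 had a median of 8.43 in EMP of E10.25 (7.79 to 8.90), 4.54 in pMac of E9.5 (3.91 to 5.50), 4.23 in pMac of E10.25 (3.95 to 5.08) and 5.03 in Mac of E10.25 (4.25 to 7.82). In these groups other than EMP of E10.25 the median of Hoxa7 was under the floor.

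**Figure D2:**
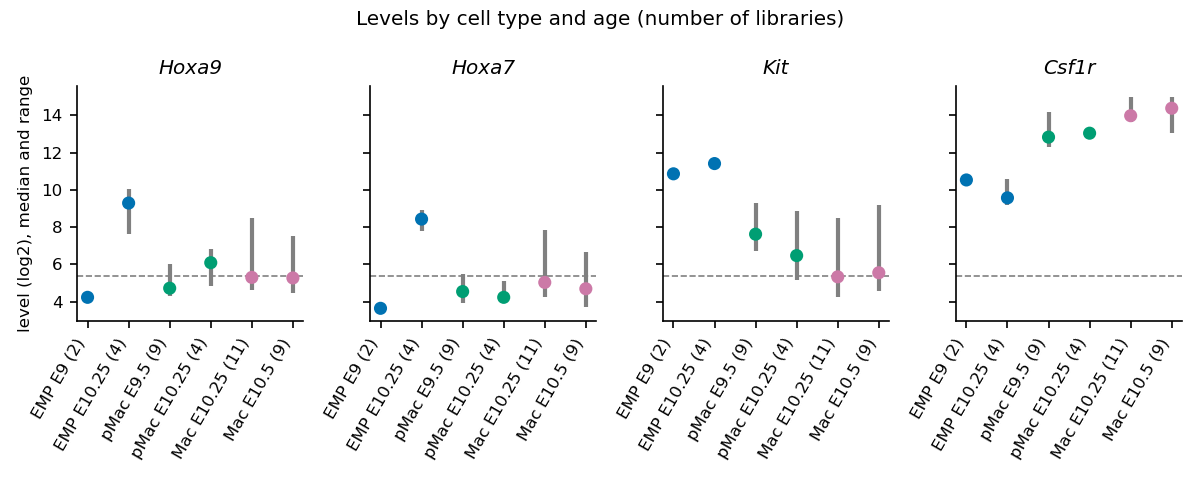
Levels of Hoxa9, Hoxa7, Kit and Csf1r (log2, y axis) in EMP, pMac and Mac of E9 to E10.5, with dots for the median, bars for the range over libraries and the number of libraries in brackets; the dashed line is the floor of 5.4. Hoxa9 and Hoxa7 have their highest median in EMP of E10.25 (9.29 and 8.43). The median of Hoxa9 is also above the floor in pMac of E10.25 (6.09). Kit is high at both EMP ages, and Csf1r is lower in EMP than in pMac and Mac.

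Genes whose ages did not overlap, whose difference was at least 1 also with the floor and whose mean was at least 8 at the higher age numbered 1041 higher and 128 lower at E10.25. Those with the largest differences after the 4 called genes are given as values. Among the higher ones, Emcn, an endothelial and stem cell sialomucin, was at 4.70 and 3.61 at E9, at 8.48 and 9.66 in the yolk sac and at 6.96 and 7.67 in the liver at E10.25. The age difference was 4.04 ± 0.71 (SE; adjusted p = 0.0776 in limma), and 2.55 with the floor. Cpq, a plasma carboxypeptidase, was at 4.52 and 2.67 at E9 and between 6.75 and 9.31 in the 4 later libraries, a difference of 4.49 ± 0.89, or 2.69 with the floor. For both genes the 4 later libraries lay above both earlier ones. Both genes were under the floor at E9 and met the filter only through E10.25, so they could be called higher only. Serpina3g, a protease inhibitor of blood cells, differed by 3.16 ± 0.60, Ifi47, an interferon-induced GTPase, by 3.11 ± 0.59, and Mansc1 by 3.10 ± 0.69. Plk2, a kinase of the polo family, and Fam174b each differed by 3.76. Without E9 replicate 1 the difference was 2.31 in Fam174b and 1.95 in Serpina3g, and without E9 replicate 2 it was 5.21 and 4.37. The yolk sac comparison alone called all 7 of these genes higher, with Emcn at 4.92 ± 0.82, Serpina3g at 4.30 ± 0.69 and Ifi47 at 4.16 ± 0.69.

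On the lower side, Lyve1, the hyaluronan receptor of yolk sac endothelium and macrophages, was at 8.46 and 9.07 at E9. It was at 6.99 and 7.31 in the yolk sac at E10.25 and at 4.99 and 3.98 in the liver, so that both liver libraries were under the floor. The age difference was -2.94 ± 0.69 (SE; adjusted p = 0.0808 in limma). Pilra, an inhibitory receptor of myeloid cells, was at 8.01 and 9.66 at E9 and between 5.17 and 6.38 at E10.25. Prtg, a cell surface protein of the early embryo, was at 9.39 and 9.45 at E9 and between 6.47 and 8.20 at E10.25. These genes had no later library as high as an earlier one, and none was called in the main comparison. Pilra (-3.56 ± 0.84), Ttn (-2.97 ± 0.62), Clcn2 (-2.83 ± 0.77) and Pkdcc (-2.73 ± 0.82) were called lower in the yolk sac comparison. For Slc2a4rg-ps, Cdc42ep1, Zfp219, Rasal1, Greb1 and Gas7 the age difference lay between -2.42 and -1.93, and none of these 6 was called in either comparison. Leaving out 1 library moved the age difference of Slc2a4rg-ps to between -3.43 and -1.40 and the yolk sac difference of Pkdcc to between -3.68 and -1.78.

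**Figure D3:**
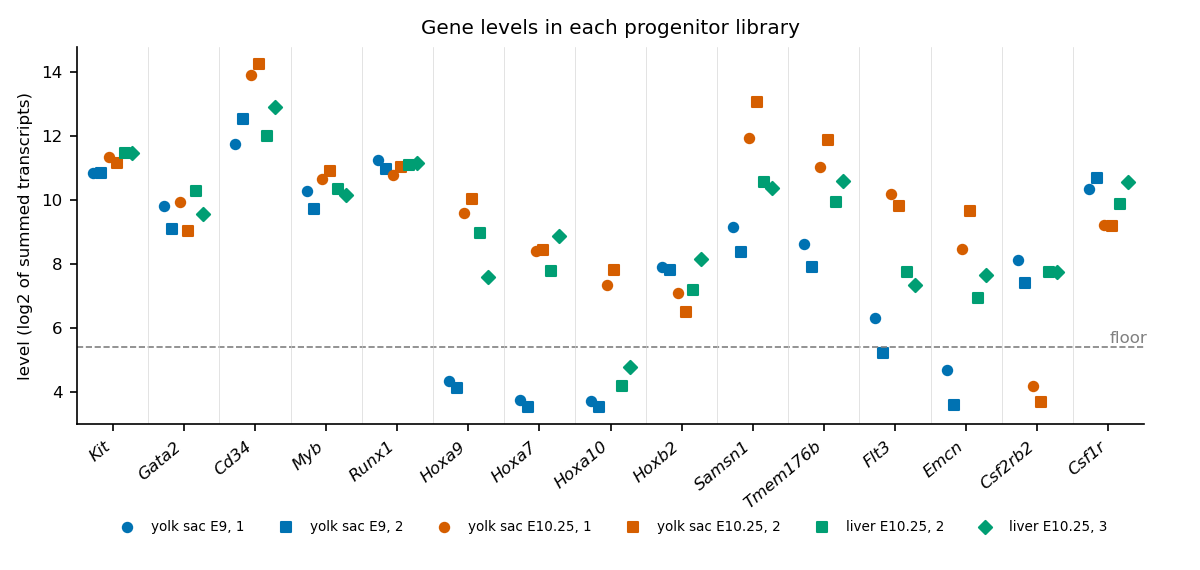
Levels (log2 of summed transcripts, y axis) of 15 genes in each of the 6 progenitor libraries, with colour for the group and symbol for the replicate; the dashed line is the floor of 5.4. Hoxa9, Hoxa7, Samsn1 and Tmem176b are higher in all 4 libraries of E10.25 than in both of E9, Hoxa10 and Flt3 are highest in the yolk sac of E10.25, and Csf2rb2 is under the floor there alone.

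Within the yolk sac, 1323 of 10539 genes (12.6%) were called between E9 and E10.25, 1233 higher (11.7%) and 90 lower (0.854%). Libraries of the 2 ages did not overlap, with a difference of at least 1, in 3560 genes that were higher (33.8%) and 642 that were lower (6.09%). The median difference over all tested genes was 0.59, so the levels of most genes were higher at E10.25, and differences are best read against that shift. The balance of directions depended on the scaling. After quantile normalization 1058 genes were called, 416 higher and 642 lower, and after median centring 547, 369 higher and 178 lower. The count rests on all 4 yolk sac libraries: it was 3 and 0 without replicates 1 and 2 of E10.25, and 18 and 7 without replicates 1 and 2 of E9, with the lone library then assumed to vary like the others. It was 3834 and 3868 without liver replicates 2 and 3, 13 with no intensity trend and 10 when 39 libraries of early stages shared the spread.

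Differences also varied with transcript length. With genes divided into 4 groups of equal number by their longest annotated transcript, from shortest to longest, the median difference in the yolk sac was 0.93, 0.87, 0.52 and 0.08. Of the genes in these 4 groups 16.02%, 16.33%, 10.6% and 3.84% were called higher. The part of length in the gene group counts below was not tested. The lists of DNA replication, mitosis, and glycolysis and hypoxia genes have median lengths of 3006, 3526 and 3441 bases.

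Of the members of the gene lists, 385 were tested and 55 were called in the yolk sac comparison (14.3%), 53 higher (13.8%) and 2 lower (0.52%), against 12.6%, 11.7% and 0.854% of all tested genes. The members were thus called about as often as genes in general. The call held in the same direction for 22 of them after quantile normalization, for 21 after median centring, and for 17 after each of them. Those 17 were Hoxa9, Hoxa7, Flt3, Emcn, Adgrl4, Emb, Csf2rb2, Arid3a, Mcm4, Mcm6, Ccnb2, Nusap1, Bnip3, Car2, Dlk1, Cited1 and Afp. Among them, Hoxa9, Hoxa7, Emcn, Dlk1 and Afp were under the floor in both E9 libraries and met the filter only through E10.25. Such genes, like the called members Hoxa10 and Acta2, could be called higher only, under any scaling. With no intensity trend 8 of the 55 stayed called, and Emcn, Hoxa7 and Hoxa9 alone did so with 39 early libraries in the fit. The shares of all tested genes, 11.7% higher and 0.854% lower, belong beside the yolk sac counts of every list below. With so few genes called lower in general, a list with none called lower is no result about its members.

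Of 20 tested factors of the progenitor state, 2 were called higher (Hoxa9 and Gfi1b) and none lower, near the 11.7% called higher over all genes, with a list median of -0.08 in the yolk sac against 0.59 for all genes. Runx1, which drives the emergence of blood from endothelium, lay between 10.78 and 11.27 in all 6 libraries. Tal1 lay between 9.15 and 9.74, and Lyl1, its close relative, between 10.40 and 11.42. For each of these 3 factors the ages overlapped. Myb, which definitive progenitors need, was at 10.29 and 9.73 at E9 and between 10.18 and 10.93 at E10.25. Gfi1b, a repressor of erythroid and megakaryocytic cells, was at 10.05 and 9.81 at E9, at 11.58 and 11.84 in the yolk sac and at 10.22 and 11.29 in the liver at E10.25. Its yolk sac difference was 1.77 ± 0.43 (SE; adjusted p = 0.0238 in limma) and was not called after quantile normalization or centring. After quantile normalization 1 factor was called higher and 6 lower.

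Among 17 tested surface proteins of progenitors, Cd34, Emb and Cd24a were called higher and none lower, against 11.7% and 0.854% of all genes. Cd24a, a small glycoprotein of immature blood cells, was at 7.02 and 5.91 at E9, at 9.51 and 10.15 in the yolk sac and at 8.26 and 6.30 in the liver at E10.25. Emb, a partner of lactate transporters, was at 10.60 and 10.47 at E9, at 12.70 and 13.37 in the yolk sac and at 10.95 and 10.88 in the liver. The yolk sac libraries of E10.25 were the highest for both, and the liver libraries were close to or above those of E9. The differences in the yolk sac were 3.37 ± 0.73 for Cd24a, 2.5 ± 0.40 for Emb and 1.94 ± 0.52 for Cd34. That of Cd34 was 0.77 after quantile normalization and then not called. The list gave 2 higher and 2 lower calls after quantile normalization.

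Of 28 tested cytokine receptors, Flt3 was called higher and Csf2rb2 lower, 1 each against 11.7% and 0.854% of all genes. Flt3, the receptor of lymphoid and dendritic cell progenitors, was at 6.33 and 5.24 at E9, at 10.20 and 9.82 in the yolk sac at E10.25 and at 7.76 and 7.35 in the liver. The liver libraries lay between the other groups and overlapped with neither. The yolk sac difference was 4.23 ± 0.63 (SE; adjusted p = 0.0128 in limma), and the age difference over both tissues was 3 ± 0.54 and not called (0.0776). Csf2rb2, a beta chain of the interleukin 3 receptor, was at 8.13 and 7.41 at E9, at 4.18 and 3.68 in the yolk sac at E10.25 and at 7.77 and 7.76 in the liver. It was thus under the floor in the yolk sac of E10.25 and at the level of E9 in the liver. The yolk sac difference was -3.84 ± 0.84 (SE; adjusted p = 0.0193 in limma), and -2.37 with the floor; its near-identical neighbour Csf2rb, at -1.11 ± 0.51, was not called, and reads may be split between the pair. Csf1r was at 10.35 and 10.71 at E9, at 9.24 and 9.21 in the yolk sac and at 9.90 and 10.58 in the liver, a yolk sac difference of -1.30 ± 0.41 that was not called (adjusted p = 0.0528 in limma). After quantile normalization 1 receptor was called higher and 6 lower.

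Of 21 tested endothelial genes, Emcn and Adgrl4 were called higher in the yolk sac and none lower, against 11.7% and 0.854% of all genes. The list median was 0.41, and after quantile normalization 2 were called higher and 1 lower. Adgrl4, an adhesion receptor of vessel growth, was at 8.63 and 8.25 at E9, at 11.19 and 12.16 in the yolk sac and at 9.23 and 10.81 in the liver at E10.25. Cdh5, the cadherin of endothelial junctions, lay between 6.24 and 7.20 in all libraries. Kdr, the main receptor for vascular growth factor, was at 8.41 and 8.05 at E9 and between 6.58 and 7.95 later. Neither was called, and these 2 genes do not stand for the list. Of its 21 members, 5 lay higher and 2 lower in the yolk sac at E10.25, without overlap and by at least 1. Of all tested genes 33.8% and 6.09% did so. Of 10 tested lymphoid-associated genes, Flt3 and Ighm were called higher, against 11.7% of all genes. After quantile normalization 2 were called higher and 1 lower. Ighm, the immunoglobulin heavy chain gene, was at 8.22 and 8.03 at E9, at 10.13 and 10.37 in the yolk sac and at 7.66 and 6.46 in the liver at E10.25.

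Of 19 tested erythroid genes, 4 were called higher in the yolk sac, among them Fech, Urod and Car2, and none lower. Of all genes 11.7% were called higher and 0.854% lower. After quantile normalization 2 of the erythroid genes were called higher and 0 lower. Fech and Urod encode enzymes of heme synthesis, and Car2 encodes a carbonic anhydrase of red cells. The yolk sac differences of these genes were 2.43 ± 0.56, 2.20 ± 0.55 and 2.47 ± 0.54. The erythroid factors Gata1 and Klf1 were not called; Klf1 was at 6.01 and 6.70 at E9, at 9.35 and 5.30 in the yolk sac and at 7.62 and 7.83 in the liver at E10.25. Of 7 tested globins, 0 were called in the yolk sac in limma, and 0 had an unadjusted p under 0.05. The embryonic globin Hbb-y was at 10.03 and 8.22 at E9, at 14.70 and 6.95 in the yolk sac at E10.25 and at 6.67 and 9.49 in the liver. It was high in 1 yolk sac library of E10.25, replicate 1, and low in the other, so that the ages overlapped.

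Of 19 tested megakaryocyte genes, F2r, a thrombin receptor, was called higher in the yolk sac (1.44 ± 0.44) and none lower, and after quantile normalization 0 were called higher and 2 lower. Pf4, a platelet chemokine, was at 4.95 and 4.93 at E9, at 5.76 and 5.98 in the yolk sac and at 8.50 and 9.33 in the liver at E10.25. Itga2b, the platelet integrin that also marks the earliest blood cells, was at 10.62 and 9.87 at E9, at 8.74 and 7.71 in the yolk sac, and at 9.63 in liver replicate 2 and above that in liver replicate 3. The liver minus yolk sac difference was 3.04 ± 0.82 in Pf4 and 2.84 ± 0.73 in Itga2b. In these 2 genes both liver libraries lay above both yolk sac libraries of the same age, and neither gene was called. Cpa3, a mast cell protease, was at 6.80 and 6.96 at E9, at 8.12 and 8.46 in the yolk sac and at 9.12 and 10.39 in the liver, with an age difference of 2.14 ± 0.50 that was not called (adjusted p = 0.0808 in limma).

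Of 19 tested genes of granulocyte and monocyte progenitors, Lyz2, the lysozyme of myeloid cells, was called higher in the yolk sac (2.66 ± 0.60) and none lower, under the 11.7% over all genes; after quantile normalization 1 was called higher and 4 lower. Mpo, the peroxidase of neutrophil granules, lay between 12.54 and 14.14 in all 6 libraries and was not called. Of 19 tested macrophage genes, Laptm5, a lysosomal protein, was called higher (1.52 ± 0.43) and none lower, with a list median of -0.12; after quantile normalization 0 were called higher and 2 lower. Csf3r, the receptor for granulocyte growth factor, was at 11.03 and 12.04 at E9 and between 9.74 and 10.81 later, and Irf8 was at 9.54 and 10.46 at E9 and between 7.72 and 9.5 later. Neither was called, and for both the later libraries lay under both of E9. In bulk libraries, fewer cells of a type and less RNA per cell cannot be told apart.

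Of 15 tested genes of a fetal program list, which holds Lin28b among others, Dlk1 was called higher and Arid3a lower in the yolk sac. After quantile normalization 1 was called higher and 2 lower. Dlk1 also belongs to the list of hepatocyte and yolk sac endoderm genes below, where the same call is counted again. Dlk1, a transmembrane relative of Notch ligands that is abundant in embryonic tissue, was at 3.82 and 3.79 at E9, at 8.24 and 8.52 in the yolk sac and at 6.79 and 7.69 in the liver at E10.25. The yolk sac difference was 4.58 ± 0.85 (SE; adjusted p = 0.0133 in limma), and 2.78 with the floor. Arid3a, a DNA-binding factor that let-7 represses, was at 9.84 and 9.83 at E9, at 8.41 and 8.10 in the yolk sac and at 9.52 and 10.10 in the liver. Its liver libraries thus lay around the E9 level. Lin28b, which blocks let-7 maturation, was at 9.28 in both E9 libraries and between 9.45 and 10.12 later and was not called; Igf2bp1, Igf2bp3 and Hmga2 were not called either.

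Genes of the cell cycle made up the longest runs of calls in the yolk sac. Of 25 DNA replication genes, 10 were called higher and none lower, against 11.7% and 0.854% of all tested genes. The list median was 1.06. After quantile normalization 2 were called higher and 4 lower, and after median centring 4 higher and 0 lower. Mcm4, a subunit of the replicative helicase, was at 10.44 and 10.36 at E9, at 12.70 and 12.90 in the yolk sac and at 10.28 and 11.18 in the liver at E10.25. The yolk sac libraries of E10.25 stood above the rest. The yolk sac difference was 2.39 ± 0.41 in Mcm4 and 2.25 ± 0.45 in Mcm6, and both were called under the 2 other scalings as well. In the other 8, Pcna, Rrm1, Rrm2, Gins2, Cdc6, Ccne2, Slbp and Chaf1b, it ran from 1.40 to 2.13.

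Of 25 mitosis genes, 8 were called higher and none lower, against 11.7% and 0.854% of all tested genes. The list median was 1.27. After quantile normalization 2 were called higher and 1 lower, and after median centring 3 higher and 1 lower. Ccnb2, a mitotic cyclin, was at 10.47 and 10.09 at E9, at 12.04 and 12.83 in the yolk sac and at 10.84 and 11.53 in the liver. Nusap1, a spindle protein, was at 9.17 and 9.14 at E9, at 11.03 and 11.78 in the yolk sac and at 9.85 and 11.02 in the liver. Both remained called under the 2 other scalings. Mki67, the usual proliferation marker, was not higher: it was at 12.39 and 11.97 at E9, at 11.12 and 11.40 in the yolk sac and at 12.51 and 13.31 in the liver, and was not called. Without any 1 of the 4 yolk sac libraries, no DNA replication or mitosis gene was called. The main comparison called none of these genes in limma, and 11 in each list had an unadjusted p under 0.05, all higher.

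Of 26 tested genes of glycolysis and hypoxia, 6 were called higher in the yolk sac and none lower. The shares of all genes were 11.7% and 0.854%. The list median was 1, and 1 gene was called higher after either other scaling. That was Bnip3, a hypoxia-induced mitophagy receptor, at 7.28 and 7.30 at E9, at 9.52 and 10.58 in the yolk sac and at 9.76 and 9.94 in the liver at E10.25. Its 4 later libraries all lay above both of E9. The yolk sac difference was 2.76 ± 0.48 (SE; adjusted p = 0.0128 in limma) and the difference over both tissues was 2.66 ± 0.42, just outside the threshold (0.0517). The glycolytic enzymes Tpi1, Pgk1 and Pgam1, the hypoxia factor Hif1a and the oxidase Ero1l gave 1.47 to 1.85. Of 26 tested genes of migration and adhesion, Itgb1 (1.71 ± 0.39), Selplg (1.56 ± 0.46) and Jam3 (1.62 ± 0.48) were called higher and none lower, near the 11.7% over all genes, and the list median of 0.57 was close to that of all genes. After quantile normalization 0 of this list were called higher and 2 lower.

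**Figure D4:**
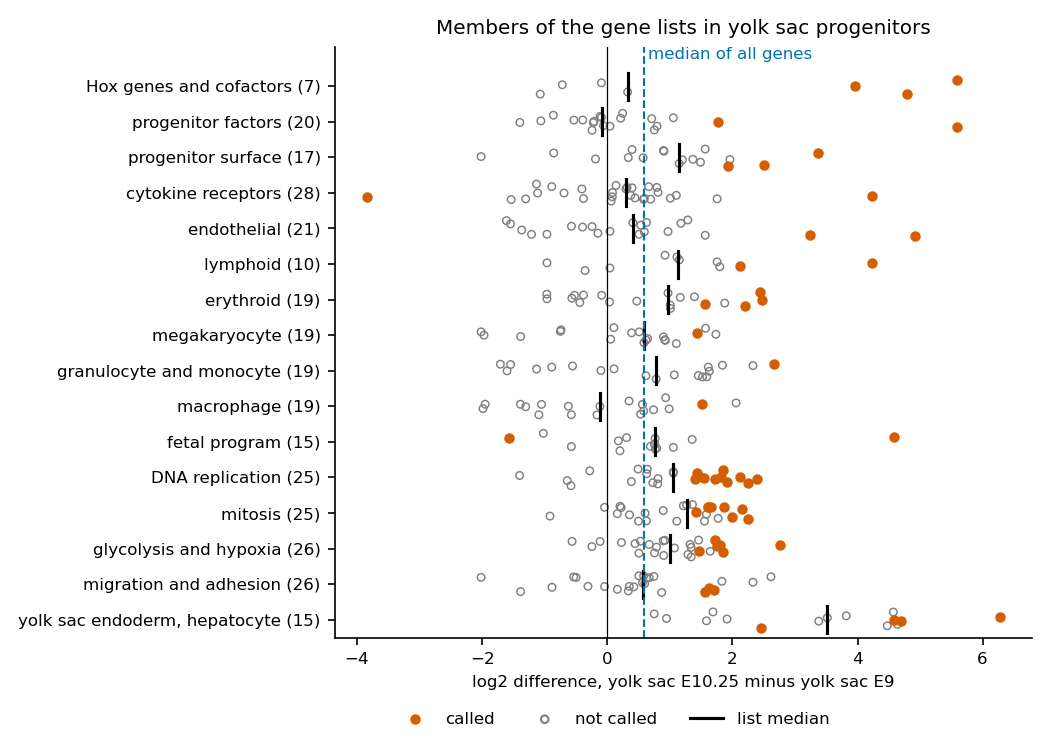
Log2 difference between yolk sac EMP of E10.25 and E9 (x axis) for each tested member of 16 gene lists, with the number tested in brackets, filled points for called genes, black bars for list medians and a dashed line for the median of all genes (0.59). DNA replication, mitosis and glycolysis genes lie mostly to the right of zero on this scaling, with 10, 8 and 6 called higher, and after quantile normalization the first of these lists has 2 called higher and 4 lower.

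Genes of other cell types varied by library as well as by age. Of 36 genes of hepatocytes and yolk sac endoderm, the layer that lines the yolk sac, 29 are in the table and 15 were tested. Of these, Afp, Cited1, Dlk1 and Krt18 were called higher in the yolk sac and none lower. Afp, alpha-fetoprotein and 1 of the 12 largest age differences, was at 5.12 and 4.34 at E9, at 8.84 and 13.19 in the yolk sac and at 5.36 and 7.11 in the liver at E10.25. Its yolk sac difference was 6.28 ± 1.14, and 4.11 without yolk sac E10.25 replicate 2. Of the 29 genes, 27 were above the floor in yolk sac E10.25 replicate 2, 17 in replicate 1, 7 and 11 in the liver libraries and 5 and 11 at E9. The summed level of the list was 14.96 in yolk sac E10.25 replicate 2, 11.83 in replicate 1, 9.11 and 11.54 in the liver and 9.11 and 10.94 at E9. The hepatocyte gene Alb was under the floor in 5 of the 6 libraries and at 5.94 in liver replicate 3. The part of this signal in the yolk sac calls was not tested.

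Globins summed to 16.17 in yolk sac E10.25 replicate 1 and to 8.08 to 12.05 in the other 5 libraries. Macrophage genes summed to 12.61 to 13.95, with overlap between the ages, and C1qb was at 8.10 and 8.57 at E9, at 7.33 and 7.23 in the yolk sac and at 6.82 and 10.21 in the liver of E10.25. Mesenchyme genes summed to 9.54 to 12.13, and between 8 and 10 of 21 were above the floor in each library. Pdgfra, a mesenchymal receptor, was under the floor in all 6 libraries. The collagen genes Col1a1 and Col3a1 were above it in yolk sac E10.25 replicate 1 alone, at 6.04 and 5.81.

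**Figure D5:**
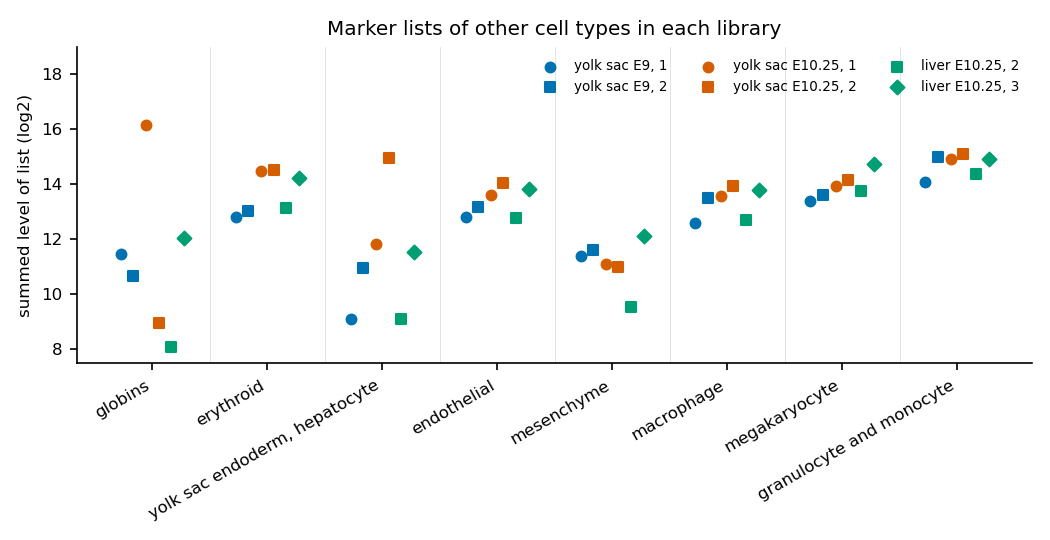
Summed level (log2, y axis) of 8 marker lists in each of the 6 progenitor libraries, with colour for the group and symbol for the replicate. The globin list is highest in yolk sac E10.25 replicate 1 (16.17) and the endoderm and hepatocyte list in replicate 2 (14.96), while the other lists span a narrower range.

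Liver and yolk sac progenitors of E10.25 gave no called gene in limma (0 of 10539, or 0%), while 2785 genes had an unadjusted p under 0.05. The median difference of all genes, liver minus yolk sac, was -0.44. With a difference of at least 1, the libraries did not overlap in 710 genes that were higher in the liver (6.74%) and 2706 that were lower (25.7%). After quantile normalization 246 genes were called, 193 higher and 53 lower, so the balance of directions depended on the scaling here too. Without liver replicate 2 the median difference was -0.29, and without liver replicate 3 it was -0.47. The lone liver library then adds no spread to the fit, so calls from those fits are no test of the genes.

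Among the genes highest in the liver, Gp5, a platelet receptor subunit, was at 7.21 and 2.54 in the yolk sac and at 8.40 and 9.10 in the liver, a difference of 3.87 ± 1.27. It was 2.44 with the floor, 6.21 without yolk sac replicate 1 and 1.54 without replicate 2. Zfpm1, the partner of Gata1 in megakaryocytes and red cells, was not among the 6 largest differences. It was at 7.80 and 7.27 in the yolk sac, at 9.82 and 10.23 in the liver and at 9.12 and 8.74 at E9. Rab44, a GTPase of granulated cells, was at 6.62 and 6.38 in the yolk sac, at 9.19 and 10.76 in the liver and at 9.61 and 9.28 at E9. For Zfpm1 and Rab44 the yolk sac libraries of E10.25 were the lowest of the 6. Both liver libraries lay above both of E9 in Zfpm1, and on either side of E9 in Rab44. The differences between liver and yolk sac were 2.49 ± 0.48 in Zfpm1 and 3.48 ± 0.57 in Rab44, not called (adjusted p = 0.057 in limma for each). Ptp4a1 differed by 3.38 ± 0.84. The processed pseudogenes Pcna-ps2, Rpsa-ps11 and Rpsa-ps4 differed by 3.71, 3.55 and 3.52, and their reads cannot be separated from those of their parent genes with certainty.

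The 6 genes furthest below in the liver were Apoa1, Rbp4, Car7, Mogat2, Apoa4 and Maob, with differences from -5.40 to -5.00. Most of their liver values were under the floor, and with the floor the differences ran from -4.69 in Apoa1 to -2.71 in Maob. Leaving out 1 yolk sac library moved that of Apoa1 to -7.57 and -3.23. Apoa1, Apoa4 and Rbp4 encode secreted carriers of lipid and retinol. Apoa1 was at 7.95 and 12.29 in the yolk sac, at 3.98 and 5.46 in the liver and at 2.59 and 8.37 at E9. All 6 were highest in yolk sac E10.25 replicate 2, the library with the highest sum of endoderm and hepatocyte genes. Of 19 tested megakaryocyte genes, 7 lay higher in the liver, without overlap and with group means at least 1 apart, and 1 lay lower. Of all genes 6.74% lay higher and 25.7% lower by that rule, and no megakaryocyte gene was called. Of 25 DNA replication genes, 12 lay lower in the liver by the same rule and 0 higher, against 25.7% and 6.74% of all genes. The list median was -0.87, and -0.44 after quantile normalization. No gene of this list was called in limma, and 11 had an unadjusted p under 0.05.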

How the data were processed

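Sorted EMP were profiled by SMART-Seq2 of polyA RNA, per the labels. The authors deposited 1 table of log2 values for 37521 Ensembl transcripts, already normalized; the base of 2 was inferred from the range, and the sources used here do not state the normalization. Bowtie 1.1.1, DESeq2 and mm10 are named, without roles, in the submitters' processing notes. The table holds no counts, so depth and counting error are unknown.

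Of the transcripts, 36714 matched GENCODE vM21 by identifier and 807 did not. Linear values were summed per gene and returned to log2. One limma 3.58.1 fit (R 4.3.3, empirical Bayes with intensity trend, 3 group means) gave all 3 comparisons. Named genes were the 12 largest differences in each direction for age (6 for tissue) with a mean of at least 8 in the higher group, no overlap between groups and at least 1 with the floor; predicted genes were not named. Gene lists are named by role. Members and lists were chosen with earlier results of these data known. The fit was tested on simulated data, where the yolk sac comparison called 45 of 50 genes raised by 3 and 26 of 50 lowered by 3. With a change of 1.5 it called 14 of 50 raised and 7 of 50 lowered. Each simulated gene had the same spread in every group, the same change in yolk sac and liver, and no shift over all genes was added. The real libraries differ in spread and shift, so these counts may not carry over. Alternatives covered the gene sum, pseudocount, scaling, filter, trend, libraries and replicate block.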

Additional observations from a re-analysis of the deposited data

Results flagged for a closer look

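Among 47 named or marker genes, 2 had a library far from the others in the 4 EMP libraries of E10.25, by Dixon's test at the 95% level. Chance alone flags about 1 in 20 genes. Pkdcc, a secreted kinase, was at 5.10 in yolk sac replicate 2 and between 6.78 and 7.08 in the other 3 libraries, a gap of 0.847 of the range. C1qb, a complement subunit of macrophages, was at 10.21 in liver replicate 3 and between 6.82 and 7.33 in the others, a gap of 0.849 of the range.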

How the results depend on the processing

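All called counts moved with the libraries and the scaling. The main comparison, with 4 calls, gave 0 with the floored sum, the top transcript, median centring, no separate tissue means, or liver against E9 only. It gave 19 with a pseudocount of 2 to the power 6, 39 with quantile normalization, 25 with no filter, 14 with a strict filter at 8 and 2 with 39 early libraries in the fit. With no intensity trend the count was 4 again, without Samsn1 and Tmem176b. Leaving out 1 library at a time gave 0 to 2822. The yolk sac comparison, with 1323, gave 547 with median centring, 13 with no intensity trend, 10 with 39 early libraries and 0 to 3868 with 1 library left out; leaving out a liver library was an alternative added after seeing the data. Its other 6 alternatives gave 1058 to 1649. Liver minus yolk sac, with 0, gave 617 with the pseudocount (62 higher, 555 lower), 246 with quantile normalization (193 higher, 53 lower), 323 with no filter (42 higher, 281 lower), 345 with the strict filter (39 higher, 306 lower) and 0 to 3828 with 1 library left out. With a replicate block the counts were 727, 3746 and 1908, and the shared numbers are not known to pair libraries. The deviations of E9 and yolk sac E10.25 replicate 1 from their group means correlated at 0.054 across genes. With 2 libraries per group, replicate 2 mirrors replicate 1, so this is a single value and cannot decide on pairing. The balance of directions turned with quantile normalization in the yolk sac comparison (416 higher, 642 lower), and so did the sign of the yolk sac medians of the cytokine receptor, endothelial, megakaryocyte, fetal, Hox, TGF-beta and mitochondrial lists. None of the genes named for the size of their difference changed sign. The cause of these changes was not tested. With no counts in the table, what depth limits cannot be given.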

Other observations

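In the yolk sac comparison, 263 processed pseudogenes were tested, of which 17 were called higher (6.46%) and 9 lower (3.42%), with a median difference of 0.34. Of 10172 protein-coding genes, 1210 were called higher (11.9%) and 79 lower (0.78%), with a median of 0.60. The difference between these shares was not tested. Rpsa-ps4, a copy of a ribosomal protein gene, was at 8.81 and 9.62 at E9, at 5.44 and 5.66 in the yolk sac at E10.25 and at 8.58 and 9.56 in the liver. Liver libraries were thus at the level of E9 in this pseudogene, as they were in Csf2rb2. In Arid3a and Rab44 the liver libraries lay on either side of E9. Reads of such copies cannot be separated from those of their parents with certainty.

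Other gene lists held few calls in the yolk sac comparison. Of 20 tested interferon response genes, Oas1a was called higher (3.66 ± 1.04, or 2.40 with the floor). Of 16 immediate early and stress genes, which respond to cell handling, Dnajb1 was called higher (1.77). Of 15 cell cycle regulators, E2f4 was called higher (1.32), and of 9 mesenchyme genes, Acta2 (4.04 ± 1.09). Acta2 was at 3.15 and 2.83 at E9, under the floor, and at 6.77 and 7.30 in the yolk sac at E10.25, a difference of 1.63 with the floor. No member of these 4 lists was called lower, while 1 interferon, 1 immediate early and 1 mesenchyme gene were after quantile normalization. Oas1a alone of these 4 genes was called after quantile normalization. Of 18 genes of TGF-beta and BMP signalling, 12 encoded by the mitochondrial genome and 8 of mast cells, 0 were called in limma, and 2, 1 and 4 had an unadjusted p under 0.05.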
